A study of Mus musculus with 85 samples.

Results

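The 36 genes described here encode aminoacyl-tRNA synthetases, the enzymes that load amino acids onto transfer RNA, in mouse brain cells that lost subunits of the NSL complex and in cultured pericytes given fatty acids. They were chosen by name in the gene lists of the study's expression tables. The 20 whose names do not end in 2 (Aars to Yars) encode cytosolic enzymes or enzymes shared by both compartments, and the 16 whose names end in 2 (Aars2 to Yars2) encode mitochondrial enzymes. All 36 are listed in the tables of 47937 genes for sorted cells and cultures and in the table of 43626 genes for whole brain, and all 36 passed the filter on low values in every comparison.

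The tested embryos carried a neural knockout (nKO) of Mof, Kansl2 or Kansl3 made with Nestin-Cre, a Cre transgene active in neural progenitors and their descendants, and the controls were Cre embryos, so every embryonic library carries the transgene. RNA came from E14.5 embryos, as whole brain and as neural cells, endothelial cells and pericytes separated by cell sorting, with microglia sorted for Mof nKO alone. The transgene is directed at the neural lineage, and endothelial cells and microglia arise outside it. A further experiment compared cultured wild-type pericytes from adult brain given a mixture of fatty acids bound to albumin (myristic and palmitic acid at 200 µM each, arachidic acid at 20 µM and lignoceric acid at 10 µM) with cultures given the ethanol and albumin vehicle. Groups held 3 libraries, except for 4 in endothelial Mof nKO and Cre and in pericyte Kansl3 nKO and Cre. The labels used here give neither the strain nor the floxed alleles, nor which sequencer was used for which library.

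An aminoacyl-tRNA synthetase joins 1 amino acid to the transfer RNAs that carry it, and this charging step supplies every codon that a ribosome reads. Mammals keep separate sets for the cytosol and for the mitochondrion. All of them are encoded in the nucleus, and the mitochondrial ones are imported to serve the translation of respiratory chain subunits from the mitochondrial genome. A group of cytosolic enzymes is held together in the multisynthetase complex by the scaffold proteins AIMP1, AIMP2 and EEF1E1. Many cytosolic synthetase genes are known targets of ATF4, the transcription factor of the integrated stress response, which binds a composite element known as CARE. MOF, encoded by Kat8, is the histone acetyltransferase of the NSL complex, which is known to act at promoters of housekeeping genes.

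The promoters of a few members are printed as examples, because CARE is a short sequence. Each covers 250 bases before to 50 bases after the gene's start, from RefSeq (GRCm38.p6), 5′ to 3′ on the gene's own strand. Capitals mark the match to the letters TGATGNAA, searched on both strands. Members were picked by motif and direction together, so they cannot show whether a match goes with a rise. The isoleucine (Iars), tyrosine (Yars) and glycine (Gars) enzymes are shown as cytosolic members with a match that rose in neural cells, the glutamine enzyme (Qars) as the cytosolic member with a large fall, and the serine (Sars2) and threonine (Tars2) enzymes as mitochondrial members that fell. Their windows are chr13:49681880-49682179 (+ strand) for Iars, chr4:129189653-129189952 (+ strand) for Yars, chr6:55037751-55038050 (+ strand) for Gars, chr9:108507755-108508054 (+ strand) for Qars, chr7:28741718-28742017 (+ strand) for Sars2 and chr3:95754928-95755227 (− strand) for Tars2.
Iars: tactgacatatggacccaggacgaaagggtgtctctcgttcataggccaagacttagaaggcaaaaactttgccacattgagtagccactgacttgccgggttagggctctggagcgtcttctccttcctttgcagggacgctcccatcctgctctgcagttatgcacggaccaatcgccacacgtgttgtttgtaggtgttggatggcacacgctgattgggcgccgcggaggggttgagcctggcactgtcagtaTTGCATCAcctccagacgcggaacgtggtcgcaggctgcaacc
Yars: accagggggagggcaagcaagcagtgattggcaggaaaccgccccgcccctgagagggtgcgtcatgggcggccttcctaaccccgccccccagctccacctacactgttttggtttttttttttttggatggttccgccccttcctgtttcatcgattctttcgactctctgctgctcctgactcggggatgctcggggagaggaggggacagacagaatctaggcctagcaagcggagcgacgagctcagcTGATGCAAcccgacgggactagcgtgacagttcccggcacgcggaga
Gars: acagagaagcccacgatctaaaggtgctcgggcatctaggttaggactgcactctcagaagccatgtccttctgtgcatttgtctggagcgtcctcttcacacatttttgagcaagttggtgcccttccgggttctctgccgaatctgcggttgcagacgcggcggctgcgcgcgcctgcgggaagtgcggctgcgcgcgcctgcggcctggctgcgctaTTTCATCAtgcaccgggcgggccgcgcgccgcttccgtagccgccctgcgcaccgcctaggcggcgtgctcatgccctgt
Qars: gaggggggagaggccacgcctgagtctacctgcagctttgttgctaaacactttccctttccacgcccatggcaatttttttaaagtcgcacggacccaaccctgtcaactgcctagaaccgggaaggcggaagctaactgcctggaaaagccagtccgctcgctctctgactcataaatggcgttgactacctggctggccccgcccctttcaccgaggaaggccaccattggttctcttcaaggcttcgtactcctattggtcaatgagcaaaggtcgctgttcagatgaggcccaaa
Sars2: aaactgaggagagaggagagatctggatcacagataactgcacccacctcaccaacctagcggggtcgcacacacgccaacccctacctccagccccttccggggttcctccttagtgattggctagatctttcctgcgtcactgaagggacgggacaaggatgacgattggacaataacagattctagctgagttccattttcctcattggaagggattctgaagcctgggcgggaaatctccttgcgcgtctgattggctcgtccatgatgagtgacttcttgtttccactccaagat
Tars2: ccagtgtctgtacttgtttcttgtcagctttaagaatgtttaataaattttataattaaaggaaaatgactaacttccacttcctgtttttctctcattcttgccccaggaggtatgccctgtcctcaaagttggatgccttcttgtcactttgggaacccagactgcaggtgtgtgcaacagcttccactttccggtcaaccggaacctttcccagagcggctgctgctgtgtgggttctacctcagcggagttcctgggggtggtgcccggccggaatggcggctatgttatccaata
Of the 36 members, 26 had an entry in the promoter table. The CARE letters were found in 5 of 12 cytosolic promoters (Aars, Gars, Iars, Tars and Yars) and in 0 of 14 mitochondrial ones, against 3.97% of 32851 promoters in the table. Eprs, without a match, rose in neural Mof and Kansl2 nKO, and Sars, also without one, rose in neural Mof nKO. Tars, with a match, did not pass in neural Kansl3 nKO (log2 fold change 0.03). The ETS factor sequence CCGGAAG was found in 4 of 12 and 4 of 14, against 8.86%, and the YY1 sequence AANATGGC in 1 of 12 and 4 of 14, against 6.05%. The NRF1 motif was found in 3 of 12 and 2 of 14, against 4.6%. None of these 4 motifs holds another within its letters, both strands were read for each, and a match is only a description of this window.

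Sorted cells are shown in normalised reads, which the authors scaled by size factors, and whole brain and cultures in CPM scaled by TMM. Markers and sums are in RPM, a share of the reads outside ribosomal RNA-like genes. That group was set to hold Lars2 and Gm42418, so their own RPM is taken over a total without their reads. Library depth ran from 1572515 reads in sorted pericytes to 51854152 in cultures. In the check of the labels, Kat8 was lower in every knockout of both tissues (6 of 6 comparisons). Kansl2 instead rose in whole brain (log2 fold change 0.46 ± 0.10, edgeR adjusted p = 0.00357) and did not pass in neural cells, and Kansl3 did not pass in whole brain and rose in neural cells (log2 fold change 0.28 ± 0.07, limma adjusted p = 0.00542), so these groups are called libraries labelled Kansl2 nKO and Kansl3 nKO. The deposited reads are per whole gene, and a count over a gene does not show whether its deleted part is missing. Sorted cells carried the markers of their label: the summed markers reached 4286 to 5128 RPM for neurons in neural libraries, 6283 to 8655 for endothelial cells and 4986 to 12147 for pericytes. Cultured pericytes, whose libraries were made with another kit, had 16.3 to 20 RPM of summed pericyte markers with fatty acids and 134.1 to 146.7 with vehicle. Microglial markers summed to 3173 to 5055 in Mof nKO microglia, against 8241 to 10529.6 in Cre microglia, and neutrophil and monocyte markers to 509.9 to 1451, against 72.7 to 103. A ribosomal RNA gene, Rn18s-rs5, took 20.5 to 39.3% of reads in neural Mof nKO libraries, 10.2 to 37.1% in Kansl2 nKO and 10.7 to 12.3% in Kansl3 nKO, against 15.4 to 28.7% in Cre libraries. Reads of 7 members, Aars, Farsb, Hars, Hars2, Wars, Iars2 and Rars2, are uncertain because they overlap another protein-coding gene, and strand-specific counting is not stated in the sources used here.

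Most mitochondrial members fell in neural cells of Kansl2 and Kansl3 nKO and the cytosolic ones divided. In neural cells of Kansl3 nKO, 13 of 16 mitochondrial members fell and none rose, while 8 of 20 cytosolic members rose and 9 fell (26.4% of all genes tested rose and 28.8% fell; limma, adjusted p under 0.05). In neural cells of Kansl2 nKO, 9 of 16 mitochondrial members fell and 0 rose, against 10 cytosolic rises and 5 falls (all genes, 20.1% up and 22.1% down). Neural cells of Mof nKO had 8 mitochondrial falls and 1 rise, Mars2, against 11 cytosolic rises and 3 falls (all genes, 19.4% up and 17.1% down). The median log2 fold change of the mitochondrial members was -0.35 in Mof nKO, -0.49 in Kansl2 nKO and -0.80 in Kansl3 nKO, that of the cytosolic members 0.19, 0.14 and -0.05, and that of all genes lay within 0.01 of 0. With RPM of all reads in place of the deposited scaling, 0 cytosolic members rose in neural Mof nKO and 0 in Kansl2 nKO, and the medians of all genes there were -0.25 and -0.16. The 3 tables share the same 3 Cre libraries and were normalised separately by the authors, so they are not independent of one another.

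In whole brain of Kansl2 nKO, 12 of 16 mitochondrial members fell and 0 rose, and 3 of 20 cytosolic members rose and 5 fell (edgeR; all genes, 10.4% up and 16.2% down), or 1 and 3 cytosolic with scaling by total reads. In whole brain of Kansl3 nKO, 11 mitochondrial members fell and 1, Mars2, rose, while 2 cytosolic members rose and 9 fell (all genes, 15.2% up and 18.8% down). Mof nKO whole brain held 1 mitochondrial fall, 2 cytosolic falls and no rise (all genes, 1.93% up and 4.04% down), while DESeq2 called 1 mitochondrial rise and 2 falls there. The median log2 fold change was -0.26, -0.62 and -0.58 for mitochondrial members and -0.08, -0.05 and -0.30 for cytosolic ones in Mof, Kansl2 and Kansl3 nKO, and between -0.01 and 0.04 for all genes. In Mof nKO 0 members passed without Cre_16, Cre_18, Cre_19, Mof_193 or Mof_197 in turn, with log2 fold changes of -0.46 to -0.60 for Qars, -0.51 to -0.70 for Wars and -0.35 to -0.55 for Tars2. These 3 comparisons also share their 3 Cre libraries. In whole brain and in any mixed sample, fewer cells of a type and less RNA per cell cannot be told apart.

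**Figure D1:**
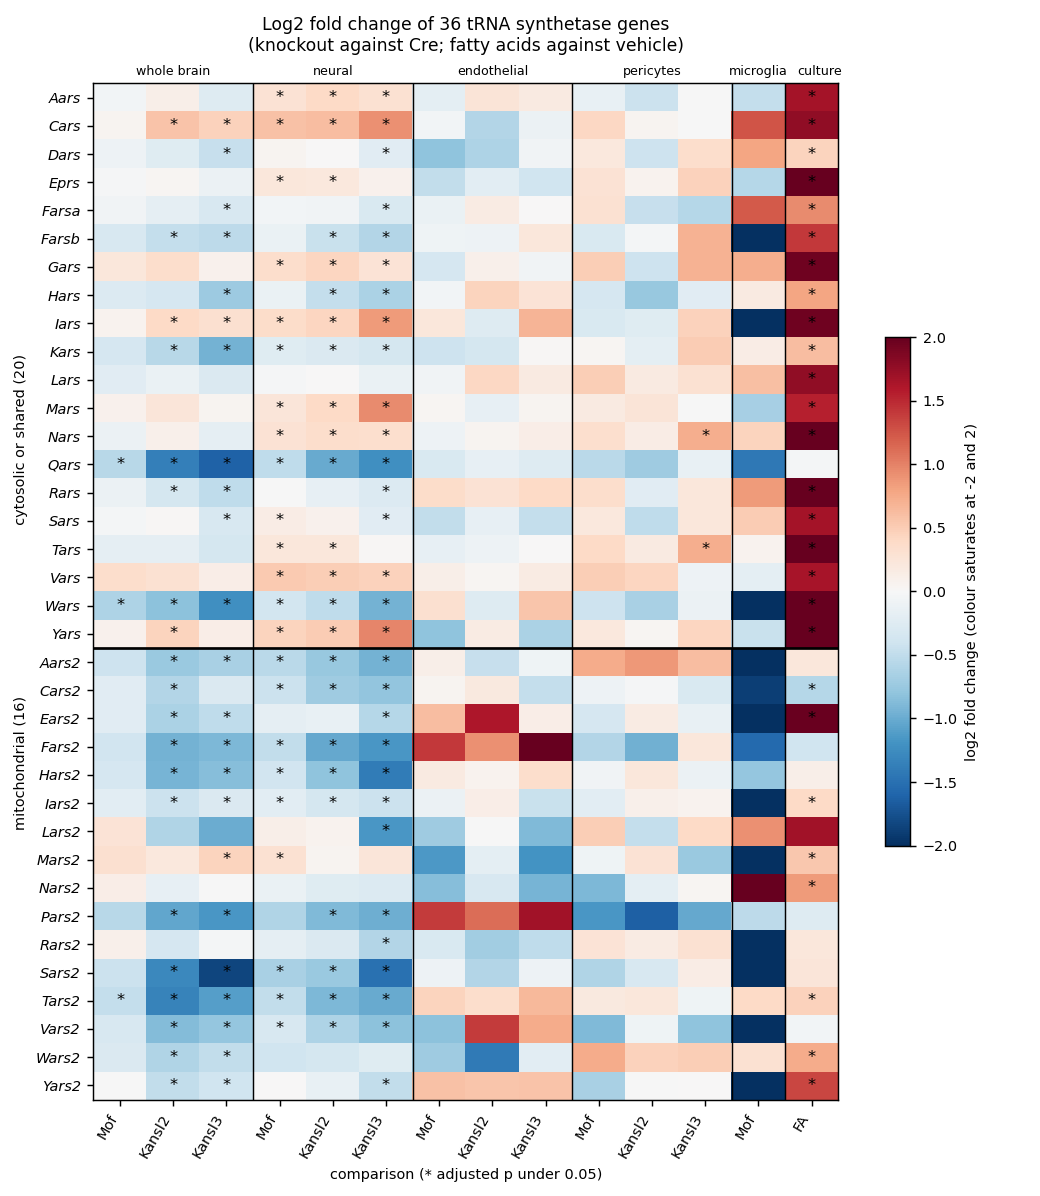
Log2 fold changes of the 36 members (rows) in 14 comparisons (columns; nKO against Cre, and fatty acids against vehicle), with colour saturating at -2 and 2 and an asterisk where the adjusted p was under 0.05. The lower block of 16 mitochondrial members is blue with asterisks in the Kansl2 and Kansl3 columns of whole brain and neural cells, and the upper block of 20 cytosolic members is red with 19 asterisks in the culture column.

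**Figure D2:**
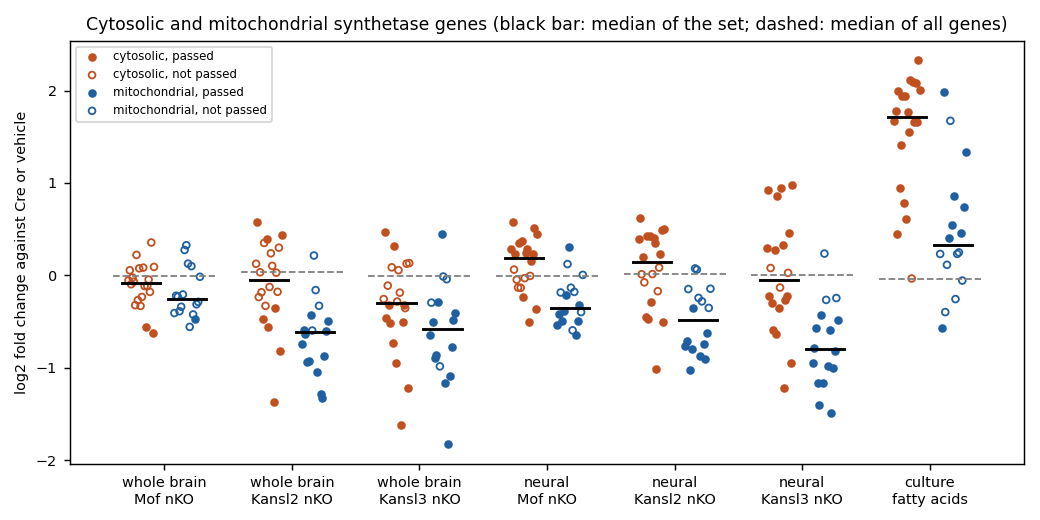
Log2 fold change (vertical axis) of each cytosolic member (orange) and mitochondrial member (blue) in the 7 comparisons of whole brain, neural cells and cultures, filled where the adjusted p was under 0.05. Black bars mark the median of each set and dashed lines the median of all genes tested, and the blue median lies below the orange one in each comparison.

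Qars, which charges glutamine and belongs to the multisynthetase complex, was the cytosolic member with the smallest p in 5 of the 6 comparisons of brain and neural cells, all but neural Mof nKO. Qars had 251, 283 and 269 normalised reads in neural Mof nKO libraries, against 388, 369 and 386 in Cre libraries. Qars had 179, 202 and 221 normalised reads in neural Kansl2 nKO libraries, against 412, 392 and 410.2 in Cre libraries. Qars had 192, 228 and 221 normalised reads in neural Kansl3 nKO libraries, against 507, 483 and 507 in Cre libraries. In each table every nKO library lay below every Cre library, and Qars fell by 0.51 ± 0.08 in Mof nKO, 1.01 ± 0.10 in Kansl2 nKO and 1.22 ± 0.10 in Kansl3 nKO on the log2 scale (± SE; limma adjusted p = 0.000158, 4.04e-06 and 2.19e-07). In whole brain Qars had 29.4, 30.7 and 31.2 CPM in Mof nKO, 19.6, 14.53 and 17.5 in Kansl2 nKO and 14.9, 17.1 and 11.7 in Kansl3 nKO, against 49.1, 43.3 and 41.7 in Cre. No knockout library overlapped a Cre library, and Qars fell by 0.55 ± 0.13 in Mof nKO, 1.37 ± 0.14 in Kansl2 nKO and 1.62 ± 0.14 in Kansl3 nKO on the log2 scale (± SE; edgeR adjusted p = 0.0285, 1.22e-05 and 4.96e-06).

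Wars, the tryptophan enzyme, also fell in all 6. Wars had 434, 464 and 465 normalised reads in neural Mof nKO libraries, against 621.2, 558 and 576 in Cre libraries. Wars had 451, 461 and 406 normalised reads in neural Kansl2 nKO libraries, against 660.0, 593 and 612 in Cre libraries. Wars had 391, 396 and 403 normalised reads in neural Kansl3 nKO libraries, against 811, 732 and 757 in Cre libraries. The knockout libraries were lower than the Cre libraries throughout, and in neural cells Wars fell by 0.36 ± 0.07 in Mof nKO, 0.50 ± 0.09 in Kansl2 nKO and 0.95 ± 0.08 in Kansl3 nKO on the log2 scale (± SE; limma adjusted p = 0.000877, 0.000272 and 3.36e-07). In whole brain Wars had 34.1, 34.4 and 41.1 CPM in Mof nKO, 39.5, 23.5 and 32.4 in Kansl2 nKO and 25.9, 23.8 and 22.6 in Kansl3 nKO, against 53.8, 65.5 and 49.5 in Cre. Again the knockouts lay below Cre without overlap, and in whole brain Wars fell by 0.62 ± 0.16 in Mof nKO, 0.81 ± 0.16 in Kansl2 nKO and 1.22 ± 0.16 in Kansl3 nKO on the log2 scale (± SE; edgeR adjusted p = 0.0361, 0.00186 and 0.000123). Wars is one of the known ATF4 targets and also one of the members that overlap a neighbouring gene, Wdr25.

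The other cytosolic falls were smaller. Kars, the lysine enzyme that serves both compartments, fell in all 3 neural tables, with log2 fold changes of -0.24 in Mof nKO, -0.29 in Kansl2 nKO and -0.36 in Kansl3 nKO. Farsb, a subunit of the phenylalanine enzyme, fell in neural Kansl2 nKO (log2 fold change -0.45 ± 0.09, limma adjusted p = 0.000909) and Kansl3 nKO (log2 fold change -0.59 ± 0.08, limma adjusted p = 1.60e-05). Hars, the histidine enzyme, fell in the same tables (-0.48 and -0.64). Dars, Farsa, Rars and Sars, for aspartate, phenylalanine, arginine and serine, fell in neural cells of Kansl3 nKO alone, with log2 fold changes from -0.30 to -0.22. In whole brain, Farsb had 43.7, 34.4 and 34.3 CPM in Kansl2 nKO and 38.4, 36.2 and 34.9 in Kansl3 nKO, against 50.8, 56.6 and 49.6 in Cre. The Cre libraries were higher without overlap, and Farsb fell in Kansl2 nKO (log2 fold change -0.48 ± 0.11, edgeR adjusted p = 0.00553) and Kansl3 nKO (log2 fold change -0.52 ± 0.11, edgeR adjusted p = 0.00286). Hars had 34.4, 32.4 and 31.3 CPM in whole brain of Kansl3 nKO, against 51.4, 64.02 and 46.8 in Cre. These groups were also separate (log2 fold change -0.73 ± 0.14, edgeR adjusted p = 0.00147). Kars had 42.5, 34.4 and 31.1 CPM in whole brain of Kansl3 nKO, against 71.0, 76.9 and 60.3 in Cre. Kars thereby lay lower in each Kansl3 nKO library than in any Cre library (log2 fold change -0.95 ± 0.19, edgeR adjusted p = 0.00202).

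Cars, the cysteine enzyme, rose in all 3 neural tables. Cars had 471, 494 and 565 normalised reads in neural Mof nKO libraries, against 322, 349.9 and 348.9 in Cre libraries. Cars had 516, 543 and 616 normalised reads in neural Kansl2 nKO libraries, against 342, 372 and 371 in Cre libraries. Cars had 912, 835 and 789 normalised reads in neural Kansl3 nKO libraries, against 420.2, 459 and 458 in Cre libraries. The knockout libraries were all higher than the Cre libraries, and Cars rose by 0.58 ± 0.08 in Mof nKO, 0.62 ± 0.09 in Kansl2 nKO and 0.92 ± 0.08 in Kansl3 nKO on the log2 scale (± SE; limma adjusted p = 5.01e-05, 7.59e-05 and 5.97e-07). In whole brain Cars had 37.4, 41.4 and 37.2 CPM in Mof nKO, 55.8, 53.1 and 57.7 in Kansl2 nKO and 48.1, 48.9 and 57.1 in Kansl3 nKO, against 39.8, 34.1 and 37.9 in Cre. Libraries labelled Kansl2 nKO and Kansl3 nKO lay above Cre and those of Mof nKO overlapped it, and Cars rose in Kansl2 nKO (log2 fold change 0.58 ± 0.10, edgeR adjusted p = 0.000759) and Kansl3 nKO (log2 fold change 0.47 ± 0.10, edgeR adjusted p = 0.003) and had a log2 fold change of 0.05 in Mof nKO (adjusted p = 0.771).

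Yars, the tyrosine enzyme, moved the same way in neural cells. Yars had 432.2, 413 and 462 normalised reads in neural Mof nKO libraries, against 309.6, 296.4 and 355 in Cre libraries. Yars had 433, 463 and 560.0 normalised reads in neural Kansl2 nKO libraries, against 329, 315 and 377 in Cre libraries. Yars had 815, 845 and 819 normalised reads in neural Kansl3 nKO libraries, against 404, 388 and 467 in Cre libraries. Every knockout library exceeded every Cre library, and Yars rose by 0.45 ± 0.09 in Mof nKO, 0.51 ± 0.11 in Kansl2 nKO and 0.98 ± 0.08 in Kansl3 nKO on the log2 scale (± SE; limma adjusted p = 0.000663, 0.00138 and 4.57e-07). In whole brain Yars had 58.6, 59.99 and 67.4 CPM in Mof nKO, 93.2, 66.3 and 76.4 in Kansl2 nKO and 62.2, 62.5 and 66.8 in Kansl3 nKO, against 56.2, 63.5 and 54.9 in Cre. In whole brain the Kansl2 nKO libraries alone stood clear of Cre, where Yars rose (log2 fold change 0.44 ± 0.12, edgeR adjusted p = 0.013). Without library K2_63, the log2 fold change of Yars was 0.275 and no longer passed. Summed fibroblast markers reached 154.2 RPM in K2_63 and 94.69 in the Kansl3 nKO library K3_117, against 8.436 to 22.04 in the other 10 whole-brain libraries. K2_63 also held 9.94% of its reads from the mitochondrial genome, against 14.47 to 25.36% in the others, and the part of these differences was not tested.

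Vars, the valine enzyme, and Gars, the glycine enzyme, which also serves the mitochondrion, rose in all 3 neural tables. Vars had 1373, 1536 and 1424 normalised reads in neural Mof nKO libraries, against 1049, 971 and 1004 in Cre libraries. Vars had 1484, 1376 and 1687 normalised reads in neural Kansl2 nKO libraries, against 1115, 1032 and 1066 in Cre libraries. The groups did not overlap, and Vars rose by 0.52 ± 0.06 in Mof nKO, 0.50 ± 0.08 in Kansl2 nKO and 0.45 ± 0.07 in Kansl3 nKO on the log2 scale (± SE; limma adjusted p = 9.87e-06, 0.000168 and 5.41e-05). Gars had 1579.9, 1604 and 1549.9 normalised reads in neural Mof nKO libraries, against 1253, 1259.8 and 1205 in Cre libraries. Gars had 1822, 1827 and 1665 normalised reads in neural Kansl2 nKO libraries, against 1331, 1339 and 1280.3 in Cre libraries. Here too the knockout libraries were the higher ones, and Gars rose by 0.35 ± 0.06 in Mof nKO, 0.43 ± 0.07 in Kansl2 nKO and 0.27 ± 0.07 in Kansl3 nKO on the log2 scale (± SE; limma adjusted p = 0.000158, 0.00017 and 0.00371). Neither gene passed in whole brain. Mars, which charges methionine on initiator and elongator transfer RNA, had 649.5, 772 and 766 normalised reads in neural Kansl3 nKO libraries, against 356.3, 376 and 402 in Cre libraries. Each Kansl3 nKO library was higher, and Mars rose by log2 0.94 ± 0.09 (SE; limma adjusted p = 1.05e-06), with 0.40 in Kansl2 nKO and 0.24 in Mof nKO, which passed as well.

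The remaining cytosolic rises in neural cells began with Iars: the isoleucine enzyme rose by log2 0.37, 0.43 and 0.85 in Mof, Kansl2 and Kansl3 nKO, while Aars (alanine) and Nars (asparagine) rose by 0.29 to 0.40 and 0.29 to 0.35. Eprs and Tars rose in Mof and Kansl2 nKO alone, by 0.20 to 0.23, and Sars rose by 0.15 in Mof nKO and fell by 0.22 in Kansl3 nKO. Lars, the leucine enzyme and a leucine sensor for mTORC1, did not pass in any brain or neural comparison against Cre. The calls moved with the scaling, which also moved all genes. With RPM of all reads, 0 cytosolic members rose and 5 fell in neural Mof nKO and 0 rose and 4 fell in Kansl2 nKO, with the median of all genes at -0.25 and -0.16, and 8 rose and 4 fell in Kansl3 nKO, with that median at 0.13. Against those medians, the log2 fold changes in Mof nKO with RPM of all reads were 0.30 for Cars, 0.24 for Vars, 0.16 for Yars and 0.07 for Gars, and in Kansl2 nKO 0.43 for Cars, 0.31 for Vars and 0.24 for Gars. When the ribosomal RNA-like genes were left out of the total, a choice made after seeing the data, 6 rose and 6 fell in Mof nKO, 7 rose and 6 fell in Kansl2 nKO and 8 rose and 10 fell in Kansl3 nKO, and Cars, Vars, Gars and Yars still passed in Mof nKO. The mitochondrial falls numbered 12, 9 and 13 under the first scaling and 12, 10 and 14 under the second. The part of the unequal Rn18s-rs5 share in these results was not tested beyond this.

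**Figure D3:**
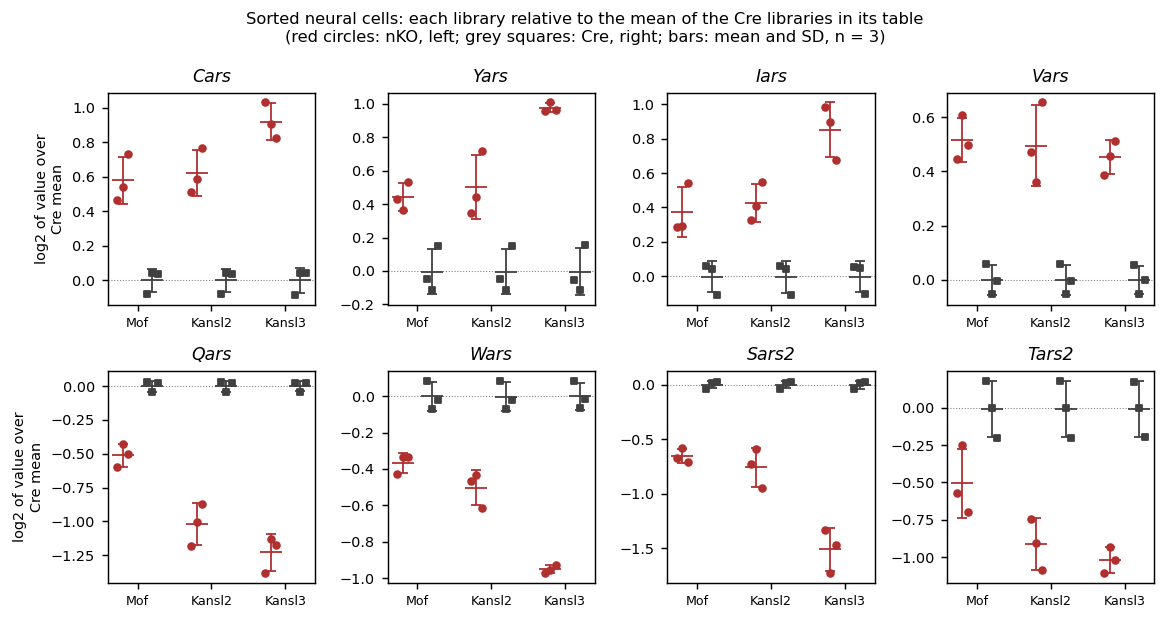
Values of 8 members in sorted neural cells, as log2 of each library over the mean of the Cre libraries in its table (red circles, nKO; grey squares, Cre; bars, mean and SD, n = 3). The knockout circles of Cars, Yars, Iars and Vars lie above the Cre squares and those of Qars, Wars and Sars2 below them in each table.

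Sars2, which charges serine in mitochondria, had the lowest log2 fold change of the mitochondrial members in neural Kansl3 nKO and in whole-brain Kansl3 nKO. Sars2 had 66.0, 70.01 and 64.1 normalised reads in neural Mof nKO libraries, against 102, 106 and 106 in Cre libraries. Sars2 had 67.1, 73.9 and 57.8 normalised reads in neural Kansl2 nKO libraries, against 108, 113 and 113 in Cre libraries. Sars2 had 54.6, 41.5 and 49.4 normalised reads in neural Kansl3 nKO libraries, against 133 to 139.6 in Cre libraries. The Cre libraries were higher in each table without overlap, and Sars2 fell by 0.64 ± 0.14 in Mof nKO, 0.75 ± 0.16 in Kansl2 nKO and 1.49 ± 0.16 in Kansl3 nKO on the log2 scale (± SE; limma adjusted p = 0.00184, 0.00127 and 2.51e-06). In whole brain Sars2 had 6.73, 6.54 and 7.54 CPM in Mof nKO, 3.53, 3.69 and 4.28 in Kansl2 nKO and 3.43, 2.45 and 1.96 in Kansl3 nKO, against 9.92, 9.45 and 8.57 in Cre. Kansl2 and Kansl3 nKO libraries lay below all others, and Sars2 fell in Kansl2 nKO (log2 fold change -1.29 ± 0.19, edgeR adjusted p = 0.000257) and Kansl3 nKO (log2 fold change -1.83 ± 0.20, edgeR adjusted p = 3.16e-05), while in Mof nKO the change was -0.42 (adjusted p = 0.159).

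Tars2, the mitochondrial threonine enzyme, fell in all 6 comparisons. Tars2 had 212, 264 and 193.3 normalised reads in neural Mof nKO libraries, against 355, 313 and 273 in Cre libraries. Tars2 had 199, 178 and 157 normalised reads in neural Kansl2 nKO libraries, against 377, 332.8 and 289.8 in Cre libraries. Tars2 had 191, 215 and 202.7 normalised reads in neural Kansl3 nKO libraries, against 463, 411 and 358 in Cre libraries. All knockout values were below all Cre values, and Tars2 fell by 0.49 ± 0.12 in Mof nKO, 0.90 ± 0.12 in Kansl2 nKO and 1.01 ± 0.11 in Kansl3 nKO on the log2 scale (± SE; limma adjusted p = 0.00287, 3.84e-05 and 2.88e-06). In whole brain Tars2 had 26.0, 25.4 and 25.1 CPM in Mof nKO, 12.1, 16.7 and 13.9 in Kansl2 nKO and 16.3, 16.7 and 16.8 in Kansl3 nKO, against 40.1, 32.6 and 33.6 in Cre. The order was the same, with no overlap, and Tars2 fell by 0.47 ± 0.12 in Mof nKO, 1.33 ± 0.13 in Kansl2 nKO and 1.09 ± 0.12 in Kansl3 nKO on the log2 scale (± SE; edgeR adjusted p = 0.0363, 8.14e-06 and 3.75e-05). The Mof nKO call in whole brain passed in the fit of all 12 libraries and not in a fit of the 6 compared, where the log2 fold change was -0.46.

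Hars2 charges histidine in mitochondria and lies head to head with Hars. Hars2 had 329.9, 279 and 288 normalised reads in neural Mof nKO libraries, against 379, 388 and 404 in Cre libraries. Hars2 had 259, 256 and 203.2 normalised reads in neural Kansl2 nKO libraries, against 403, 412 and 429.6 in Cre libraries. Hars2 had 189.7, 213 and 178 normalised reads in neural Kansl3 nKO libraries, against 495, 508 and 531 in Cre libraries. Knockout libraries were lower without overlap, and Hars2 fell by 0.39 ± 0.09 in Mof nKO, 0.80 ± 0.11 in Kansl2 nKO and 1.40 ± 0.10 in Kansl3 nKO on the log2 scale (± SE; limma adjusted p = 0.00186, 3.39e-05 and 7.86e-08). In whole brain Hars2 had 31.1, 29.5 and 32.4 CPM in Mof nKO, 19.4, 22.8 and 19.9 in Kansl2 nKO and 20.6, 23.2 and 21.2 in Kansl3 nKO, against 39.9, 38.4 and 39.5 in Cre. Hars2 fell in Kansl2 nKO (log2 fold change -0.93 ± 0.10, edgeR adjusted p = 2.10e-05) and Kansl3 nKO (log2 fold change -0.86 ± 0.10, edgeR adjusted p = 3.88e-05), whose libraries were the lowest, and reached an adjusted p of 0.05002 in Mof nKO (log2 -0.34; edgeR), just outside the threshold.

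Vars2, the mitochondrial valine enzyme, stands beside the cytosolic Vars, which rose. Vars2 had 279.8, 308 and 293 normalised reads in neural Mof nKO libraries, against 364, 358 and 375 in Cre libraries. Vars2 had 219, 291.5 and 252 normalised reads in neural Kansl2 nKO libraries, against 387, 380.2 and 398 in Cre libraries. Vars2 had 256.8, 253 and 307 normalised reads in neural Kansl3 nKO libraries, against 475, 469 and 493 in Cre libraries. Vars2 was lower in every knockout library, and it fell by 0.32 ± 0.08 in Mof nKO, 0.62 ± 0.11 in Kansl2 nKO and 0.82 ± 0.10 in Kansl3 nKO on the log2 scale (± SE; limma adjusted p = 0.00545, 0.000305 and 6.05e-06). In whole brain Vars2 had 23.9, 32.3 and 24.3 CPM in Mof nKO, 16.4, 21.3 and 17.2 in Kansl2 nKO and 19.6, 18.01 and 20.8 in Kansl3 nKO, against 32.1, 31.6 and 36.3 in Cre. Vars2 fell in Kansl2 nKO (log2 fold change -0.87 ± 0.14, edgeR adjusted p = 0.000413) and Kansl3 nKO (log2 fold change -0.77 ± 0.14, edgeR adjusted p = 0.000918), with all of those libraries below Cre, while 1 Mof nKO library lay within the Cre range.

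Aars2 and Fars2, the mitochondrial enzymes for alanine and phenylalanine, fell in all 3 neural tables. Aars2 had 126, 125 and 97.2 normalised reads in neural Mof nKO libraries, against 166, 174 and 166 in Cre libraries. Aars2 had 103, 95.8 and 116.8 normalised reads in neural Kansl2 nKO libraries, against 176, 185 and 176 in Cre libraries. Aars2 was lower in each knockout library, and it fell by 0.54 ± 0.13 in Mof nKO, 0.77 ± 0.13 in Kansl2 nKO and 0.95 ± 0.12 in Kansl3 nKO on the log2 scale (± SE; limma adjusted p = 0.00264, 0.000238 and 1.69e-05). Fars2 had 79.1, 79.9 and 82.0 normalised reads in neural Kansl2 nKO libraries, against 172.9, 144 and 179 in Cre libraries. Fars2 had 72.5, 95.2 and 104 normalised reads in neural Kansl3 nKO libraries, against 212, 178 and 221 in Cre libraries. The Fars2 groups were likewise apart, and Fars2 fell by 0.50 ± 0.14 in Mof nKO, 1.02 ± 0.14 in Kansl2 nKO and 1.17 ± 0.15 in Kansl3 nKO on the log2 scale (± SE; limma adjusted p = 0.0079, 3.83e-05 and 1.40e-05). In whole brain, Aars2 had 13.3, 12.4 and 10.8 CPM in Kansl2 nKO, against 18.8, 21.9 and 20.7 in Cre. The Cre libraries were higher (log2 fold change -0.74 ± 0.13, edgeR adjusted p = 0.000668). Fars2 had 8.11, 9.78 and 7.72 CPM in whole brain of Kansl3 nKO, against 16.6, 16.8 and 14.1 in Cre. It was lower in each of those knockout libraries (log2 fold change -0.89 ± 0.16, edgeR adjusted p = 0.00101).

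The other 10 mitochondrial members moved less evenly. Cars2 and Iars2 fell in all 3 neural tables, by log2 0.42, 0.71 and 0.78 for Cars2 and by 0.21, 0.35 and 0.43 for Iars2. Pars2, the proline enzyme, fell in Kansl2 nKO (-0.88) and Kansl3 nKO (-0.98), and Ears2, Rars2, Yars2 and Lars2 fell in Kansl3 nKO alone, with log2 fold changes from -1.17 for Lars2 to -0.49 for Yars2. Nars2 and Wars2 did not pass in any neural table, although Wars2 fell in whole brain of Kansl2 nKO (-0.60) and Kansl3 nKO (-0.49). Mars2 went against its set: it rose in neural Mof nKO (log2 fold change 0.31 ± 0.10, limma adjusted p = 0.0221) and whole-brain Kansl3 nKO (log2 fold change 0.45 ± 0.10, edgeR adjusted p = 0.00347), and its log2 fold change was above 0 in the other 4 comparisons. Under both RPM scalings and in DESeq2, the neural Mof nKO rise of Mars2 was no longer among the calls.

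Summed over the 15 mitochondrial members other than Lars2, neural libraries held 411 ± 10.6 RPM in Mof nKO, 355 ± 18.5 in Kansl2 nKO and 328.2 ± 9.31 in Kansl3 nKO, against 533 ± 4.89 in Cre (SD, n = 3 each; reads outside ribosomal RNA-like genes). The summed cytosolic members reached 2510 ± 20.0 in Mof nKO, 2507 ± 79.3 in Kansl2 nKO and 2504 ± 63.7 in Kansl3 nKO, against 2423 ± 32.6 in Cre. The mitochondrial sum was lower in every knockout library than in any Cre library, while the cytosolic means lay close together. In whole brain the mitochondrial sum was 319 ± 3.38 in Mof nKO, 260.5 ± 9.70 in Kansl2 nKO and 281 ± 12.9 in Kansl3 nKO, against 381.5 ± 15.3 in Cre, and the cytosolic sum was 1403 ± 101, 1569 ± 361 and 1284 ± 93.2, against 1576 ± 218. These sums weight each gene by its reads and are given without a test.

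For 13 amino acids the members hold 1 cytosolic and 1 mitochondrial gene each. The cytosolic log2 fold change exceeded the mitochondrial one for 11 of 13 amino acids in neural Mof nKO, 11 in Kansl2 nKO and 12 in Kansl3 nKO, with median differences of 0.44, 0.65 and 1.04. The widest gap in each neural table was for cysteine, with Cars at 0.92 and Cars2 at -0.78 in Kansl3 nKO. The exception in Kansl3 nKO was tryptophan, with Wars at -0.95 and Wars2 at -0.25. In whole brain the count was 8 of 13 in Mof nKO, 11 in Kansl2 nKO and 9 in Kansl3 nKO, with median differences of 0.11, 0.83 and 0.54, and the widest gap in both Kansl2 and Kansl3 nKO was for serine, with Sars2 far below Sars. The 2 genes of a pair were measured in the same libraries, and these counts are a description.

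Whole brain and neural cells share no library, so the calls can be set against each other. In Kansl3 nKO the 9 cytosolic members that fell in neural cells were the 9 that fell in whole brain (100% of each list). Of the mitochondrial falls in Kansl3 nKO, 10 were shared, which is 76.9% of the 13 in neural cells and 90.9% of the 11 in whole brain. In Kansl2 nKO, 9 mitochondrial falls were shared (100% of the neural and 75% of the whole-brain list), along with 4 cytosolic falls (80% of each: Farsb, Kars, Qars and Wars) and 3 cytosolic rises (30% of the neural and 100% of the whole-brain list: Cars, Iars and Yars). Mof nKO shared the falls of Qars, Wars and Tars2. No member rose in one and fell in the other for the same knockout. Of all genes tested, 28.8% fell in neural cells and 18.8% in whole brain of Kansl3 nKO, and 22.1% and 16.2% in Kansl2 nKO. How many of those calls were shared was not counted, so the overlap of the members cannot be set against that of other genes. The whole-brain knockouts also held more reads of other cell types: summed microglial markers ran from 36.6 to 43.3 RPM in Mof nKO, 69.1 to 114 in Kansl2 nKO and 82.1 to 94.3 in Kansl3 nKO, against 21.5 to 23.5 in Cre, and summed erythroid markers averaged 569 ± 263 RPM in Mof nKO, 826 ± 477 in Kansl2 nKO and 822 ± 326 in Kansl3 nKO, against 324 ± 52.3 in Cre (SD, n = 3 each). In neural libraries microglial markers stayed at or below 0.861 RPM, while progenitor markers ran from 1523 to 1785 in Mof nKO, 1729 to 2099 in Kansl2 nKO and 1741 to 2091 in Kansl3 nKO, against 1422 to 1498 in Cre, and erythroid markers from 929.6 to 1407, 665.5 to 1048 and 1133 to 2320, against 606 to 835. The progenitor markers did not move together. Vim, Nes and Pax6 rose in each knockout, and Hes5 passed in none. Sox2 rose in Kansl2 nKO (log2 fold change 0.22) and fell in Kansl3 nKO (-0.32), where Fabp7 fell as well (-0.32). The part of these cell types in the whole-brain and neural results was not tested.

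Knockouts were also compared with each other in whole brain, which tests their difference directly. Kansl2 nKO against Mof nKO gave 1 cytosolic rise, 1 cytosolic fall and 4 mitochondrial falls (all genes, 4.0% up and 4.65% down). Tars2 had 12.1, 16.7 and 13.9 CPM in Kansl2 nKO, against 26.0, 25.4 and 25.1 in Mof nKO. Tars2 was lower in each Kansl2 nKO library (log2 fold change -0.86 ± 0.13, edgeR adjusted p = 0.00248), and so were Hars2 (log2 fold change -0.59 ± 0.10, edgeR adjusted p = 0.00449), Sars2 (log2 fold change -0.86 ± 0.20, edgeR adjusted p = 0.0178) and Vars2 (log2 fold change -0.56 ± 0.14, edgeR adjusted p = 0.0268), all without overlap, with 2 mitochondrial calls left without K2_63 and 7 made without K2_68. Qars had 19.6, 14.53 and 17.5 CPM in Kansl2 nKO, against 29.4, 30.7 and 31.2 in Mof nKO. Qars was lower in Kansl2 nKO without overlap (log2 fold change -0.81 ± 0.14, edgeR adjusted p = 0.00475). Cars had 55.8, 53.1 and 57.7 CPM in Kansl2 nKO, against 37.4, 41.4 and 37.2 in Mof nKO. Cars was higher in Kansl2 nKO without overlap (log2 fold change 0.52 ± 0.10, edgeR adjusted p = 0.00786).

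Kansl3 nKO against Mof nKO gave 1 cytosolic rise, 6 cytosolic falls and 4 mitochondrial falls (all genes, 6.05% up and 7.43% down). Sars2 had 3.43, 2.45 and 1.96 CPM in Kansl3 nKO, against 6.73, 6.54 and 7.54 in Mof nKO. Sars2 was lower in each Kansl3 nKO library (log2 fold change -1.41 ± 0.21, edgeR adjusted p = 0.00276). Qars, whose values in these libraries stand above, was lower in Kansl3 nKO (log2 fold change -1.06 ± 0.14, edgeR adjusted p = 0.00191), as were Hars2 (-0.52), Tars2 (-0.62) and Vars2 (-0.46) of the mitochondrial set. Wars (-0.60), Kars (-0.62), Hars (-0.46), Rars (-0.40) and Farsa (-0.25) were the other cytosolic falls, and Cars was higher in Kansl3 nKO (0.41). With scaling by total reads 1 cytosolic member rose and 1 fell in this comparison. Of the 7 cytosolic calls 1 was left without K3_119, K3_149 or Mof_200 in turn and 4 without K3_117 or Mof_197. Leaving out each library in turn, the log2 fold change ran from -0.93 to -1.22 for Qars, -0.51 to -0.66 for Wars, -0.33 to -0.56 for Hars, -0.33 to -0.50 for Rars and 0.33 to 0.45 for Cars. Kansl3 nKO against Kansl2 nKO called 0 members in edgeR and 0 in DESeq2 (all genes, 0.0368% called in either direction), with 6 cytosolic and 4 mitochondrial members at an unadjusted p under 0.05 (27.8% of the 36, against 18% of all genes). The log2 fold changes of all 20 cytosolic members were below 0 in this comparison, and the share of all genes below 0 was not counted. Without library K2_68, 6 cytosolic members passed in it. Summed cytosolic members reached 1258.9 RPM in K2_68, against 1965.9 in K2_63 and 1482.5 in K2_70.

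Genes that work beside the synthetases were counted in the same way. The scaffold Aimp1 fell in neural Mof nKO (log2 fold change -0.26 ± 0.09, limma adjusted p = 0.0279), Kansl2 nKO (log2 fold change -0.50 ± 0.10, limma adjusted p = 0.000835) and Kansl3 nKO (log2 fold change -0.69 ± 0.09, limma adjusted p = 2.19e-05) and in whole brain of Kansl2 and Kansl3 nKO (-0.49 and -1.08), while Aimp2 rose in neural Mof nKO alone (0.33). Of the 8 synthetases of the multisynthetase complex, 3 rose and 2 fell in neural Mof nKO and in Kansl2 nKO, and 2 rose and 4 fell in Kansl3 nKO. Gatb and Qrsl1, subunits of the amidotransferase that makes mitochondrial glutaminyl-tRNA, fell by 1.06 and 0.87 on the log2 scale in neural Kansl3 nKO. Gatc, another subunit, did not pass in that comparison (-0.33). In neural Mof nKO Gatc fell (-0.43), and Gatb and Qrsl1 did not pass. Mtfmt, which formylates the initiator methionine, fell by 0.65 in neural Kansl3 nKO. Of 9 factors of mitochondrial translation, 5, 7 and 9 fell in neural Mof, Kansl2 and Kansl3 nKO and none rose. Mtif3, an initiation factor, had log2 fold changes of -0.59, -1.19 and -1.36, and Mtrf1, a release factor, fell in Kansl3 nKO (log2 fold change -2.11 ± 0.25, limma adjusted p = 5.92e-06). In whole brain 7 of the 9 fell in Kansl2 nKO and 7 in Kansl3 nKO, and 0 passed in Mof nKO. The 5 cytosolic elongation factor genes had 5 rises in neural Mof nKO, 5 in Kansl2 nKO and 3 in Kansl3 nKO, and Eef1d at 0.47, 0.53 and 0.35. For these lists the share among all genes stands with the neural counts above, and these lists were chosen with earlier results known.

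The cytosolic set can be divided by a list of synthetases known as ATF4 targets from other mammalian cells. The list was chosen with earlier results of these data known, and absence from it does not show that a gene is no target. Of the 11 on the list, in neural cells at the deposited scaling 10 rose and 1 fell in Mof nKO, 9 rose and 1 fell in Kansl2 nKO and 7 rose and 2 fell in Kansl3 nKO, with medians of 0.29, 0.40 and 0.30. Of the 9 not on it, 1 rose (Vars) in each table and 2, 4 and 7 fell, with medians of -0.05, -0.17 and -0.30. The difference between the groups was not tested. Atf4 itself rose in all 3 neural tables (0.55, 0.53 and 0.33) and in whole brain of all 3 knockouts (0.64, 0.64 and 0.46). Other ATF4 targets, outside the synthetases, rose in 14 of 16 tested genes in neural Mof nKO, 16 of 16 in Kansl2 nKO and 15 of 17 in Kansl3 nKO. Of all genes tested in these neural tables, 19.4%, 20.1% and 26.4% rose and 17.1%, 22.1% and 28.8% fell. Sesn2, a stress-induced inhibitor of mTORC1, rose by log2 1.77, 2.52 and 2.84, Slc7a5, a carrier of large neutral amino acids, by 1.22, 1.54 and 1.73, and Asns, which makes asparagine, by 1.16, 1.76 and 1.81. In whole brain 6, 14 and 12 of 18 such genes rose in Mof, Kansl2 and Kansl3 nKO, while the ATF4-target synthetases held 0, 3 and 2 rises and 1, 1 and 2 falls. Of all genes tested in whole brain, 1.93%, 10.4% and 15.2% rose and 4.04%, 16.2% and 18.8% fell.

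Sorted endothelial cells, pericytes and microglia gave few calls. In endothelial cells 0 members passed in Mof, Kansl2 and Kansl3 nKO (limma; 0% of all genes passed in either direction), with 4, 1 and 1 members at an unadjusted p under 0.05, all of them cytosolic (11.1%, 2.78% and 2.78% of the 36, against 8.64%, 5.86% and 6.41% of all genes). Eprs had 2204, 2446, 2088 and 2508 normalised reads in endothelial Mof nKO libraries, against 3182, 3425, 3555 and 2879 in Cre libraries. Eprs, the enzyme for glutamate and proline, was lower in each Mof nKO library (log2 fold change -0.50 ± 0.17, limma adjusted p = 0.513) and passed in DESeq2 on whole reads alone. Dars in endothelial Mof nKO (log2 fold change -0.81 ± 0.29, limma adjusted p = 0.521) and Kansl2 nKO (log2 fold change -0.62 ± 0.27, limma adjusted p = 0.832) and Sars in Kansl3 nKO (log2 fold change -0.48 ± 0.21, limma adjusted p = 0.777) came next by p. Qars had log2 fold changes of -0.31 ± 0.34 in endothelial Mof nKO, -0.16 ± 0.35 in Kansl2 nKO and -0.26 ± 0.36 in Kansl3 nKO (SE), with overlapping groups, and its SE in neural cells was 0.08 to 0.10. One endothelial Mof nKO library was matched to its group by its column name but not to a single sample.

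In sorted pericytes of Kansl3 nKO, 2 cytosolic members rose and 0 mitochondrial members passed (all genes, 1.88% up and 1.24% down). Tars had 536, 660.1, 573 and 603 normalised reads in pericyte Kansl3 nKO libraries, against 387, 371, 336 and 334 in Cre libraries. The groups of Tars, the threonine enzyme, were separate (log2 fold change 0.73 ± 0.15, limma adjusted p = 0.0206). Nars had 826, 672, 1198 and 767 normalised reads in pericyte Kansl3 nKO libraries, against 474, 562, 490.4 and 527 in Cre libraries. Nars was also higher in each Kansl3 nKO library (log2 fold change 0.72 ± 0.18, limma adjusted p = 0.0407). Neither passed without Cre_134, Cre_139, Cre_141, Cre_142 or K3_339 in turn, with log2 fold changes of 0.70 to 0.77 for Tars and 0.68 to 0.77 for Nars. Tars alone passed without K3_327 or K3_335, and Nars was at 0.55 without K3_335. Summed progenitor markers ran from 4036.8 to 5657.5 RPM in these Kansl3 nKO libraries, against 2848.1 to 3827.3 in Cre, and endothelial markers from 93.77 to 118.2, against 146.2 to 191.4. The progenitor list holds Vim and Nes, and its sum reached 2257.0 to 2624.9 RPM in vehicle cultures. Sox2 and Hes5, of the same list, were at 0 in those cultures, so the sum is not particular to progenitors. Fibroblast markers overlapped, at 201.4 to 332.8 in Kansl3 nKO and 301.6 to 600.7 in Cre, and the part of these differences was not tested. In pericytes of Kansl2 nKO 0 members passed (all genes, 0.951% up and 1.26% down), and in those of Mof nKO 0 members passed (0% of all genes in either direction), with 4 and 5 members at an unadjusted p under 0.05 (11.1% and 13.9% of the 36, against 18.2% and 13.4% of all genes). Hars (log2 fold change -0.76 ± 0.25, limma adjusted p = 0.126) and Wars (log2 fold change -0.65 ± 0.23, limma adjusted p = 0.151) had the smallest p of the cytosolic members in Kansl2 nKO, and Lars (log2 fold change 0.49 ± 0.21, limma adjusted p = 0.334) and Qars (log2 fold change -0.54 ± 0.24, limma adjusted p = 0.339) in Mof nKO.

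In microglia of Mof nKO 0 members passed in limma (0% of all genes in either direction), with 1 at an unadjusted p under 0.05 (2.78% of the 36, against 10.2% of all genes). Cars had 509, 828 and 1679.9 normalised reads in microglial Mof nKO libraries, against 417, 337 and 363 in Cre libraries. Cars was higher in each Mof nKO library, by log2 1.26 ± 0.53 (SE; adjusted p = 0.475). Iars2 had 241, 7.11 and 6.56 normalised reads in microglial Mof nKO libraries, against 282, 190.3 and 237 in Cre libraries. Iars2 was low in both M646 and M689 and lay within the Cre range in M643 (log2 fold change -3.25 ± 1.44, limma adjusted p = 0.507). On whole reads its log2 fold change was -1.56 in edgeR and -1.47 in DESeq2, and in limma without M643 it was -4.90. The median was -2.02 for mitochondrial and 0.11 for cytosolic members, with all genes at -0.50, and without M643 1 cytosolic and 2 mitochondrial members passed. The mitochondrial median rests in part on values of 0: Aars2, Cars2, Mars2, Pars2, Rars2, Sars2 and Vars2 had no reads in M646. M689 held 2215701 reads. Summed mitochondrial members without Lars2 were 435.6 RPM in M643, 98.38 in M646 and 241.1 in M689, against 364.3, 300.9 and 305.8 in Cre.

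Lars2, the mitochondrial leucine enzyme, is listed apart because its reads did not follow its set. It reached 733 to 19792 RPM in sorted endothelial cells, 1431 to 4420 in pericytes and 2615 to 41036 in microglia, whose libraries were made with SMART-Seq, against 5.5 to 47.4 in brain tissue, 12.52 to 63 in neural libraries and 21 to 426.5 in cultures, made with TruSeq. Kit and cell type cannot be told apart in these levels. Gm42418, whose locus overlaps ribosomal RNA sequence, reached its highest value, 178329 RPM, in the microglial library M689 that also held the highest Lars2 value, and both were the highest of the cultures in FA_3. Lars2 passed in neural Kansl3 nKO alone (log2 fold change -1.17 ± 0.17, limma adjusted p = 4.03e-05). Gm42418 (-0.40) and Rn18s-rs5 (-1.02) fell there too, and so did 12 of the other 15 mitochondrial members. Lars2 was placed among the ribosomal RNA-like genes left out of the RPM total. The part of ribosomal RNA-like reads in Lars2 was not tested, and sums of the mitochondrial set are given without it.

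**Figure D4:**
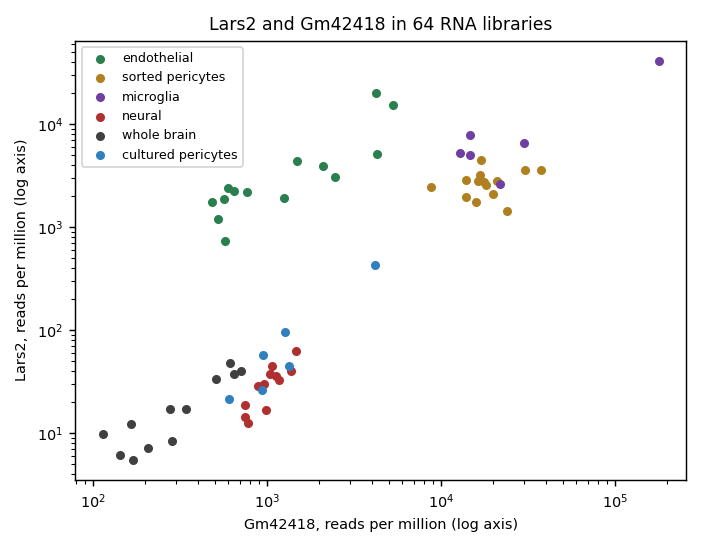
Lars2 (vertical axis) against Gm42418 (horizontal axis) in 64 RNA libraries, both in RPM on log axes, coloured by tissue. The RPM total leaves out the reads of both genes. Endothelial, pericyte and microglial libraries lie at 733 RPM of Lars2 or above, and whole-brain, neural and cultured libraries at 426.5 or below.

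In cultured pericytes given fatty acids, 19 of 20 cytosolic members rose and 0 fell, with a median log2 fold change of 1.72, while 7 of 16 mitochondrial members rose and 1 fell, with a median of 0.33 (edgeR; all genes, 32.3% up and 34.3% down, median -0.04). With scaling by total reads 7 mitochondrial members rose and 3 fell, with the median of all genes at -0.22. Wars had 311, 294 and 325 CPM in cultures with fatty acids, against 58.7, 62.4 and 63.6 with vehicle. Wars, which fell in the brain knockouts, was higher in every culture with fatty acids (log2 fold change 2.33 ± 0.08, edgeR adjusted p = 1.73e-06). Rars had 469.8, 441 and 469.5 CPM in cultures with fatty acids, against 107, 109.5 and 108 with vehicle. Rars, the arginine enzyme, rose without overlap (log2 fold change 2.09 ± 0.07, edgeR adjusted p = 1.73e-06). Lars had 488, 492 and 500.4 CPM in cultures with fatty acids, against 143, 143 and 148 with vehicle. The leucine enzyme Lars rose as well (log2 fold change 1.77 ± 0.07, edgeR adjusted p = 2.09e-06). Iars had 302, 316 and 289 CPM in cultures with fatty acids, against 75.1, 78.2 and 83.0 with vehicle. Iars stood apart in the same way (log2 fold change 1.94 ± 0.08, edgeR adjusted p = 2.12e-06). Cars had 325, 298 and 287 CPM in cultures with fatty acids, against 83.6, 90.95 and 91.3 with vehicle. Cars completed the 5 with the smallest p (log2 fold change 1.77 ± 0.08, edgeR adjusted p = 3.33e-06).

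The rises of Nars, Tars and Yars were of the same order, with log2 fold changes of 2.11, 2.08 and 2.01, and those of Dars (0.45), Kars (0.61), Hars (0.79) and Farsa (0.94) were the smallest. Qars had 128, 94.1 and 101 CPM in cultures with fatty acids, against 113, 109 and 109 with vehicle. Qars was the single cytosolic member that did not pass, its groups overlapped, and its log2 fold change was -0.03 ± 0.12 (SE; edgeR adjusted p = 0.81). The summed cytosolic members reached 7539.8 ± 521 RPM with fatty acids, against 2592 ± 17.3 with vehicle (SD, n = 3 each), and the mitochondrial members without Lars2 610.3 ± 64.7, against 567 ± 7.21.

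Among mitochondrial members the glutamate enzyme led. Ears2 had 23.6, 25.9 and 27.2 CPM in cultures with fatty acids, against 6.45, 6.64 and 6.32 with vehicle. Ears2 was higher in each culture with fatty acids (log2 fold change 1.98 ± 0.09, edgeR adjusted p = 3.38e-06). Yars2 had 30.5, 27.6 and 31.0 CPM in cultures with fatty acids, against 11.3 to 12.47 with vehicle. Yars2 rose without overlap (log2 fold change 1.34 ± 0.09, edgeR adjusted p = 1.26e-05). Wars2 had 46.2, 57.0 and 54.7 CPM in cultures with fatty acids, against 31.1, 32.5 and 30.9 with vehicle. Wars2, for tryptophan, also rose (log2 fold change 0.74 ± 0.09, edgeR adjusted p = 0.000282). Tars2 had 41.5, 44.4 and 45.1 CPM in cultures with fatty acids, against 31.7, 32.2 and 31.4 with vehicle. Tars2, which fell in the brain, rose here (log2 fold change 0.46 ± 0.07, edgeR adjusted p = 0.000577). Iars2 had 194.1, 179.7 and 189 CPM in cultures with fatty acids, against 143, 143 and 140.1 with vehicle. Iars2 rose by less (log2 fold change 0.40 ± 0.07, edgeR adjusted p = 0.00107). Nars2 (0.86) and Mars2 (0.54) were the other rises, and Cars2 fell (log2 fold change -0.57 ± 0.20, edgeR adjusted p = 0.0341). Hars2, Sars2 and Vars2, which fell in neural cells, did not pass here, with log2 fold changes of 0.11, 0.25 and -0.06. The log2 fold change of the cytosolic gene exceeded that of its mitochondrial partner for 13 of 13 amino acids, with a median difference of 1.44, and the gap was widest for cysteine.

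All 11 ATF4-target synthetases rose in the cultures, 8 of the other 9 cytosolic members rose, and 7 of the 8 members of the multisynthetase complex rose, Qars excepted. The scaffolds Eef1e1 (log2 fold change 2.18 ± 0.11, edgeR adjusted p = 4.30e-06), Aimp2 (1.11) and Aimp1 (0.26) rose. Of the other ATF4 targets, 18 of 19 rose, among them Slc7a11, the cystine carrier (4.17), Atf3, a stress-induced transcription factor (2.96), and Shmt2, of mitochondrial one-carbon metabolism (2.95), and Atf4 rose by log2 2.55. Of the 9 mitochondrial translation factors 3 rose and 1 fell, and their rises lie near the share of all genes. Of all genes tested in the cultures, 32.3% rose and 34.3% fell, which also holds beside the other counts here. Cultures with fatty acids and with vehicle also differed in cell markers. Summed pericyte markers are given above, and summed fibroblast markers were 53.7 to 61.4 RPM with fatty acids and 280 to 283 with vehicle. The pericyte markers did not move together. Pdgfrb fell, with a mean of 15.74 CPM with fatty acids and 126.1 with vehicle, and Rgs5 and Anpep fell as well. Cspg4 rose, with a mean of 1.151 CPM with fatty acids and 0.5712 with vehicle. Kcnj8 was at 0 in every vehicle library and at most 0.02311 CPM with fatty acids, so it does not separate the groups. The part of these differences in the synthetase results was not tested.

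**Figure D5:**
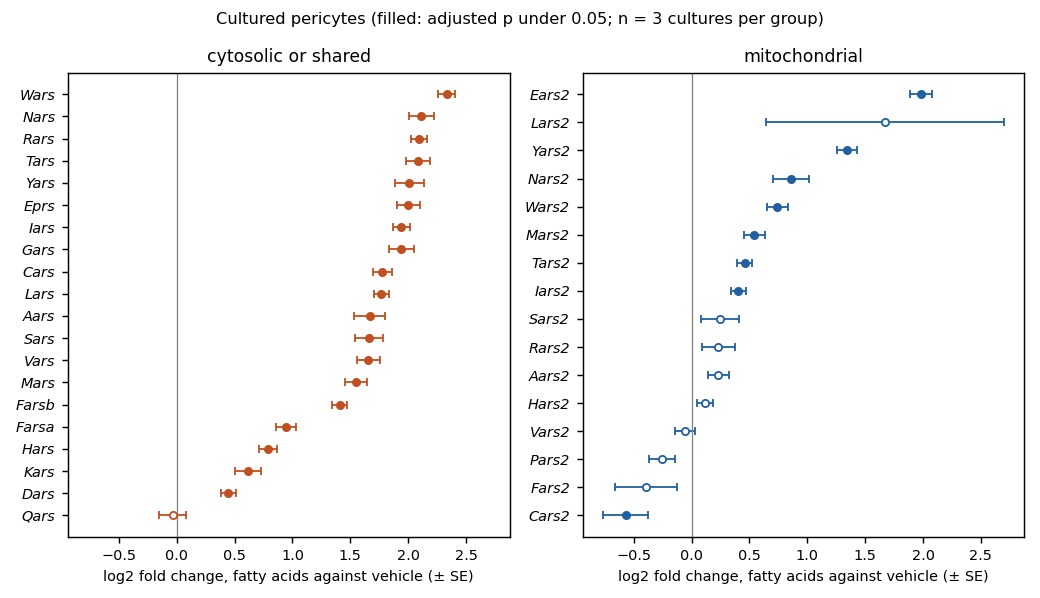
Log2 fold change, fatty acids against vehicle (horizontal axis, bars ± SE, n = 3 cultures per group), of the cytosolic (left) and mitochondrial (right) members, filled where the adjusted p was under 0.05. In the left panel 19 of 20 members are filled and lie right of 0, with Qars at -0.03, and in the right panel 8 of 16 are filled, with Cars2 at -0.57.

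Set against neural cells of Kansl3 nKO, which share no library with the cultures, all 8 cytosolic members that rose in neural cells rose in the cultures (100% of the neural list and 42.1% of the 19 in culture). Of the 9 cytosolic members that fell in neural cells, 8 rose in the cultures (88.9% of the 9 and 42.1% of the 19), Qars being the exception. Of the 13 mitochondrial falls in neural cells, 4 rose in the cultures, Ears2, Iars2, Tars2 and Yars2 (30.8% of the 13 and 57.1% of the 7), and Cars2 fell in both. With 19 of 20 cytosolic members up in the cultures, nearly any cytosolic list would overlap them this far.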

How the data were processed

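RNA was sequenced from 64 libraries in 20 groups, and 21 chromatin samples were not analysed here. For whole brain and cultures the authors deposited raw read counts per gene. For sorted cells they deposited a signal, read counts divided by size factors, in a separate table for each comparison. Alignment and counting used STAR, featureCounts and the mm10 genome build, per the submitters' processing notes, which give no versions and name DESeq2. Whole brain, neural cells and cultures were prepared with TruSeq kits and the other sorted cells with SMART-Seq v4 and Nextera XT, per the labels' protocols. Kit and cell type therefore change together. Levels stand side by side across kits only for Lars2, given by kit, and for marker sums. In those levels kit and cell type cannot be told apart.

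Counts were tested with edgeR 4.0.16 (R 4.3.3; quasi-likelihood, TMM scaling, filterByExpr), whole brain as 12 libraries in 1 fit, and values are shown as TMM-scaled CPM. The deposited signal was tested with limma 3.58.1 with trend, on values to which 1 was added before taking log2, keeping genes whose mean reached 10. Adding 1 shrinks the fold changes of low genes, but they can be large where single libraries lie at or near 0. In microglial Mof nKO, the log2 fold change of Iars2 was -3.25 in limma and -1.56 in edgeR on whole reads. Each p-value was adjusted by Benjamini-Hochberg over all genes tested, at 0.05, and none of the deposited p-values was used. The deposited signal gave whole reads for 100% of values in all 68 columns (tolerance 0.01), so edgeR and DESeq2 1.42.0 on those reads were alternatives: in neural cells edgeR called 10 cytosolic rises and 3 falls in Mof nKO, 10 and 5 in Kansl2 nKO, and 8 and 9 in Kansl3 nKO. The fits were tested on simulated data. Tables were handled with Python 3.11.15 and pandas 2.3.3.

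None of 72 pairs of replicates was a copy of another. The labels do not say for each group which libraries come from separate litters, so p-values measure the spread between these samples. In embryonic tissues the groups compared share no sample numbers, while the Mof nKO libraries of neural cells and microglia, which are not compared with each other, carry the same numbers. In cultures, numbers 1 to 3 occur in both groups, and the labels do not say that they pair cultures. Per comparison, values per library are given for up to 5 cytosolic and 5 mitochondrial members with the smallest p among those that passed, or 2 where none passed. Where a member was already described, its values are not repeated. The members and all gene lists were chosen with earlier results of these data known. Whole-brain libraries held 8444551 to 12641817 reads and neural ones 5687012 to 12665665. Endothelial libraries held 10048082 to 25260285 reads, those of pericytes 1572515 to 5852542, those of microglia 2215701 to 9817084 and the cultures 42623429 to 51854152.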

Additional observations from a re-analysis of the deposited data

Results flagged for a closer look

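Qars in the Cre pericytes of the Mof nKO table was flagged because library Cre_142, at 180.2 normalised reads, lay far from the other Cre libraries, which held 259.3 to 270.5. Among 32 groups checked this was 1 flag, and chance flags about 1 group in 20.

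Tars was flagged because its log2 fold change had opposite signs in Kansl3 nKO. It was 0.73 in sorted pericytes, where Tars passed and was higher in every Kansl3 nKO library. In whole brain it was -0.35 and did not pass (edgeR adjusted p = 0.0924). Tars was lower there in every Kansl3 nKO library, but K3_149 (40.15 CPM) lay close to Cre_19 (40.27 CPM). The difference between the tissues was not tested.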

How the results depend on the processing

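Most counts of members kept within 1.5 times under each alternative, and no named log2 fold change that passed changed sign. In whole-brain Mof nKO, 3 mitochondrial members passed with scaling by total reads, 3 with DESeq2 and 0 with only the 6 libraries compared, against 1. Scaling by total reads gave 4 cytosolic calls in whole-brain Kansl2 nKO, against 8, and 2 in Kansl3 nKO against Mof nKO, against 7. Neural cytosolic calls numbered 5 in Mof nKO and 4 in Kansl2 nKO with RPM of all reads, against 14 and 15, and their direction turned: 0 rose and 5 fell in Mof nKO, against 11 and 3, and 0 rose and 4 fell in Kansl2 nKO, against 10 and 5. The cytosolic median turned to -0.09 and -0.04 there, against 0.19 and 0.14, and to 0.08 in Kansl3 nKO, against -0.05, while that of all genes moved to -0.25, -0.16 and 0.13. DESeq2 on whole reads called 1 cytosolic member, Eprs, in endothelial Mof nKO, 1 mitochondrial member, Lars2, in pericyte Kansl2 nKO and 4 cytosolic members in pericyte Kansl3 nKO, where RPM gave 1 with and 1 without reads of the ribosomal RNA-like genes. Kansl2 nKO against Mof nKO gave 8 mitochondrial calls with no filter and 2 with only the 6 libraries compared, against 4. The cause of these shifts was not tested, beyond the smaller number of libraries in the fits of 6.

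Leaving out 1 library at a time, cytosolic calls ran from 0 to 2 and mitochondrial from 0 to 1 in whole-brain Mof nKO, mitochondrial from 0 to 1 in pericyte Kansl2 nKO (1 without Cre_139), cytosolic from 0 to 3 in pericyte Kansl3 nKO, and cytosolic from 0 to 1 and mitochondrial from 0 to 2 in microglia (without M643). Kansl2 nKO against Mof nKO ran from 2 to 4 cytosolic and 2 to 7 mitochondrial, Kansl3 nKO against Mof nKO from 1 to 5 cytosolic and Kansl3 nKO against Kansl2 nKO from 0 to 6 cytosolic (6 without K2_68). In neural cells of Kansl3 nKO they ran from 15 to 17 cytosolic and 13 to 14 mitochondrial, and in cultures from 19 to 20 and 7 to 11.

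With the replicate block in cultures, 19 cytosolic and 8 mitochondrial members passed, the same counts as without it. Deviations of same-numbered cultures correlated at 0.34, 0.207 and 0.061. Fatty acid culture 2 correlated best with vehicle culture 3 (0.32), and the other fatty acid cultures with their own number. With 3 cultures per group these values cannot show whether the numbers pair cultures. No paired analysis was possible because the groups share no replicate numbers in the other comparisons. How often a change of the size seen in neural cells would pass in endothelial cells, pericytes or microglia was not tested.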
